A study of Mus musculus with 64 samples.

Results

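V6.5 mouse embryonic stem cells carrying a degron on RPB3, a subunit of RNA polymerase II (Pol II), were treated with the auxin IAA for 12 h and set against untreated cells of the same line. A degron is a tag through which IAA and the plant receptor OsTir1 send the tagged protein to the proteasome. The comparison was taken whole, by the column names of the deposited count table: 2 IAA and 2 untreated libraries of the 64 in the series, across all genes. Per the labels' protocols, cells of both groups first received doxycycline for 12 h to switch on OsTir1, at 2 µg/ml (the series text gives 1 µg/ml), and the IAA group then received 500 µM IAA. All cells grew in serum medium with the GSK3 inhibitor CHIR99021 and the MEK inhibitor PD0325901, and received a 10% spike-in of Drosophila S2 cells, whose counts were not analysed here. Poly(A) RNA was sequenced. The other lines used beside it were the RPB11, RPB10 and RPB12 degrons and wild-type V6.5 cells, each with 2 IAA and 2 untreated libraries. Whether the wild type carries OsTir1, and whether a degron line is 1 clone, was not given in the sources used here. The labels do not say whether the 2 replicates of a group are separate cultures, and p-values then reflect the spread of these libraries alone, which may be technical.

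RPB3, encoded by Polr2c, pairs with RPB11, encoded by Polr2j, and the pair is the eukaryotic counterpart of the alpha dimer on which bacterial RNA polymerase is built. With RPB10 (Polr2l) and RPB12 (Polr2k) it forms the assembly module to which the large subunits RPB1 and RPB2 are added. RPB3 and RPB11 belong to Pol II alone, whereas RPB10 and RPB12 are shared with Pol I and Pol III. A change in mRNA after loss of such a subunit reflects both synthesis and the decay of older transcripts.

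The IAA libraries held 5554714 and 5279793 counts, against 5551538 and 5678106 in untreated cells. At this near-equal depth the IAA libraries had 23417 and 23771 genes with a count, against 20532 and 20653 in untreated cells, and their 100 most abundant genes took 11.8% and 12.2% of the counts, against 14.7% and 14.4%. One library stood apart. Messenger RNAs of the mitochondrial genome made up 0.534% of IAA replicate 1 and 1.72% of IAA replicate 2, against 1.27% and 1.30% in untreated cells, and 0 of the 52 libraries of the 12 h set were below IAA replicate 1. The chi-square per degree of freedom between replicates was 7.27 for the IAA pair and 1.27 for the untreated pair, so the IAA pair spread more. Counts are relative, and a loss common to every mRNA would not show in them. In these bulk samples, fewer cells of a type and less RNA per cell cannot be told apart either. Values below are CPM scaled by edgeR's TMM method unless said otherwise.

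The embryonic stem cell markers were present in all 4 libraries. Pou5f1, which encodes OCT4, had 1101 and 878 CPM in IAA cells, against 1231 and 1174 CPM in untreated cells, and Sox2 had 319 and 315 CPM in IAA cells, against 349.8 and 344 CPM in untreated cells. Neither passed the test with all libraries, and Pou5f1 passed without IAA replicate 1 (-0.49). Embryonic fibroblast markers, a list of 16 genes, summed to 60.0 and 54.9 CPM in IAA cells, against 39.0 and 41.4 CPM in untreated cells, and 7 of the 16 were at 0 counts in both untreated libraries. Fbn1 and Col5a1 were the 2 of 8 tested that rose (25%, where 24.4% of all genes rose), Col5a1 only with IAA replicate 1 and untreated replicate 1 in the fit (0.25 and 0.33 without them). The part of such cells in the results was not tested.

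After 12 h of IAA, 8558 of 17928 genes tested (47.7%) passed an adjusted p of 0.05 in edgeR's quasi-likelihood test with Benjamini-Hochberg adjustment over all genes. Of these, 4374 rose (24.4%) and 4184 fell (23.3%). With a log2 fold change of 1 or more in size as well, 2126 rose (11.9%) and 1134 fell (6.33%). The values of the groups did not overlap in 13107 genes (73.1%). Counts for the gene lists below stand beside the 24.4% of all genes that rose and the 23.3% that fell. Of protein-coding genes averaging at least 5 CPM, 24.6% rose and 33.1% fell, and the share that fell climbed with level. All genes together had a median log2 fold change of 0.06, a 5th percentile of -1.21 and a 95th of 2.93, so the upward tail was the longer. That spread includes 729 genes at 0 counts over a group, whose fold changes have no firm size. The quartiles were -0.42 and 0.66 for all genes. They were -0.46 and 0.32 for protein-coding genes averaging at least 5 CPM. TMM centres the typical gene near 0, so every direction is relative to that choice. Scaled to total counts, the median of all genes was 0.24, with 5879 rising and 2841 falling. Scaled to the mRNAs of the mitochondrial genome, the median was 0.80, with 8188 rising and 367 falling, but without IAA replicate 1 that same scaling gave a median of -0.16, with 2004 rising and 4348 falling.

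**Figure D1:**
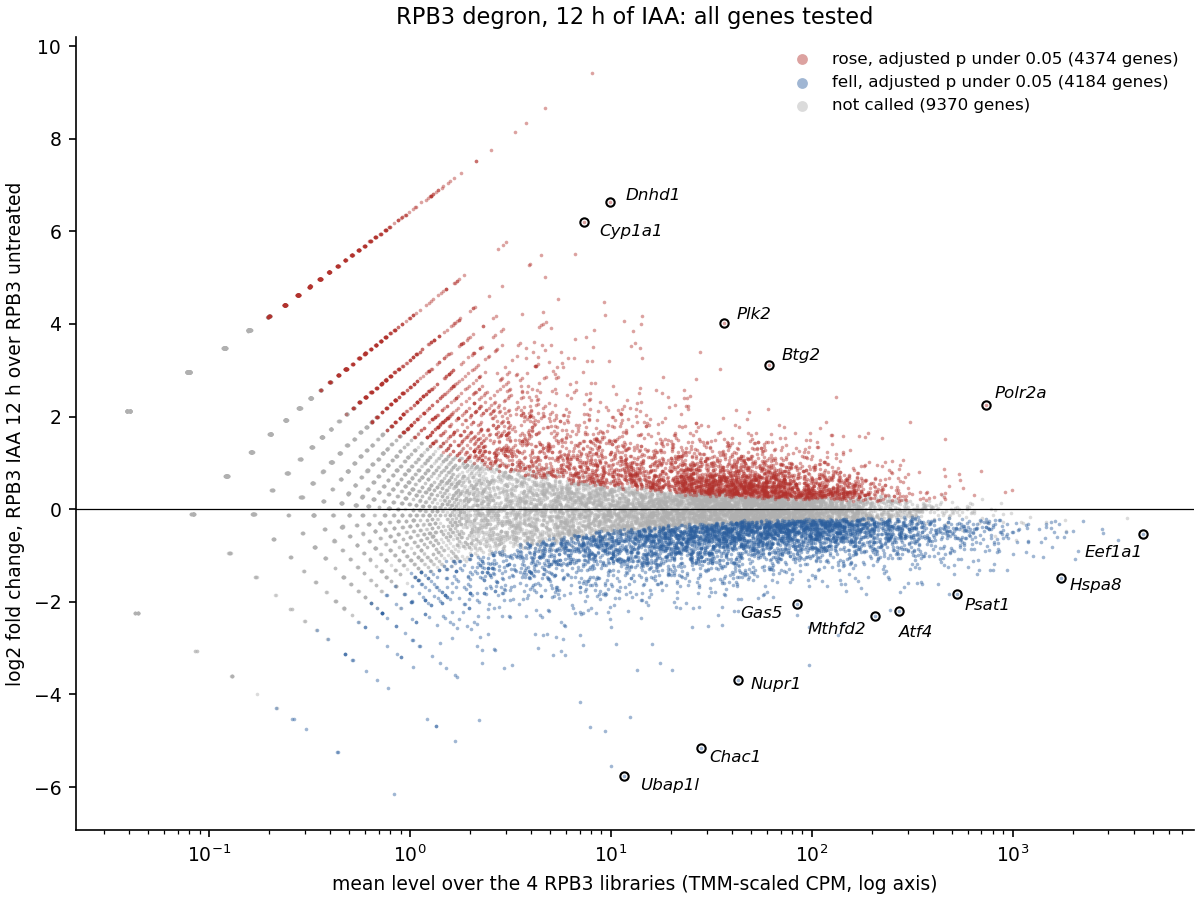
Log2 fold change (RPB3 IAA 12 h over untreated) against mean level in TMM-scaled CPM on a log axis, one point a gene, for 17928 genes. Red points rose (4374) and blue points fell (4184) at an adjusted p under 0.05, and the upper tail, with a 95th percentile of 2.93, is longer than the lower one, with a 5th percentile of -1.21. The points include 729 genes at 0 counts over a group, whose fold changes have no firm size.

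The highest rises among genes averaging at least 5 CPM came from genes that were almost silent in untreated cells. Genes with only a model name were left out of the ranking, such as Gm38300, chosen after its values were seen, with 18.0 and 14.2 CPM in IAA cells, against 0 and 0 CPM in untreated cells, at least 61.7-fold higher against a floor of 3 counts over the group. Dnhd1, a dynein heavy chain domain gene, had 18.1 and 21.0 CPM in IAA cells, against 0.353 and 0 CPM in untreated cells, which is 246 counts against 2 and a ratio of 112 (exact 95% interval from counting 30.7 to 932). Cyp1a1, a cytochrome P450 of the aryl hydrocarbon receptor, had 15.9 and 13.1 CPM in IAA cells, against 0.177 and 0.171 CPM in untreated cells, a ratio of 83.5 (22.8 to 695). The ranking held only called genes without overlap, so the gap between the groups follows from the choice. Dnhd1 and Cyp1a1 reached a mean of 5 CPM only through the IAA group.

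Col11a2, a fibrillar collagen chain, followed with 20.5 and 15.0 CPM in IAA cells, against 0.883 and 0.685 CPM in untreated cells (log2 fold change 4.46 ± 0.38 SE, edgeR adjusted p = 2.0e-13). Plk2, a polo-like kinase induced by p53, had 69.3 and 69.4 CPM in IAA cells, against 5.65 and 2.91 CPM in untreated cells (4.02 ± 0.17, edgeR adjusted p = 2.6e-23). These were ranked among genes without overlap as well, so the gap between the groups is part of the choice. The 5 CPM mean was taken over both groups, so a gene low in untreated cells can pass through the IAA group alone. Col11a2 and Plk2 passed in this way too. Efnb2, the membrane ligand ephrin-B2, rose by 3.85 ± 0.28 on the log2 scale, and L1cam, a neural adhesion molecule, rose by 3.66 ± 0.39. The rest of the 12 highest were Vwa5b2, Kbtbd6, Ahnak2, Hspa1a, Neto2 and Wdr78, with log2 fold changes of 3.50 to 3.90. Without untreated replicate 1 and without untreated replicate 2, Vwa5b2 was at 5.56 and 3.09 and Kbtbd6 at 4.82 and 3.23. Genes with 0 counts in both untreated libraries give only a lower bound, against a floor of 3 counts over the group. Uts2r, the urotensin receptor, was at least 25.5-fold higher in IAA cells with 84 counts, and it is named with its values known.

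At the low end, Ubap1l, a gene named for its likeness to a ubiquitin-binding protein, had 0.624 and 0.162 CPM in IAA cells, against 22.1 and 23.6 CPM in untreated cells (-5.77 ± 0.39, edgeR adjusted p = 1.7e-16). Enox1, a cell-surface oxidase gene, had 0.624 and 0.162 CPM in IAA cells, against 20.1 and 19.2 CPM in untreated cells (-5.55 ± 0.39, edgeR adjusted p = 6.3e-16). Chac1, which degrades glutathione, had 1.41 and 1.62 CPM in IAA cells, against 54.8 and 54.5 CPM in untreated cells (-5.16 ± 0.25, edgeR adjusted p = 9.7e-22). The ranking held only called genes without overlap between the groups, so the gap in these 3 follows from the choice. These 3 reached a mean of 5 CPM only through the untreated group. Of the 12 lowest, Chac1, Vldlr, Nupr1 and Slc6a9 are members of the integrated stress response list below, and Spry4 is in the FGF-ERK feedback list. Jdp2, an AP-1 family repressor, fell by 4.50 ± 0.31, Inhbb, the inhibin beta B chain, by 4.17 ± 0.38, Fgf17 by 3.47 ± 0.22, Pck2, the mitochondrial form of PEPCK, by 3.37 ± 0.14 and Krt17, a keratin, by 3.14 ± 0.33 on the log2 scale. Without IAA replicate 1 the falls were larger, at -6.98 for Ubap1l, -6.76 for Enox1, -5.58 for Jdp2 and -4.23 for Krt17.

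The most abundant genes that rose included Polr2a, described next, and Cdh1, the adhesion molecule E-cadherin, with 1028 and 1051 CPM in IAA cells, against 791 and 805 CPM in untreated cells. Dync1h1, the heavy chain of cytoplasmic dynein, had 877 and 909 CPM in IAA cells, against 495 and 518 CPM in untreated cells. Among the most abundant that fell was Eef1a1, the elongation factor that brings tRNA to the ribosome, with 3787 and 3469 CPM in IAA cells, against 5332 and 5225 CPM in untreated cells. Gapdh, the glycolytic enzyme often used as a reference gene, had 2237 and 2525 CPM in IAA cells, against 3224 and 3173 CPM in untreated cells (-0.43 ± 0.09, edgeR adjusted p = 6.7e-05). Cdh1, Dync1h1, Eef1a1 and Gapdh were also taken from called genes without overlap between the groups. Scaled to mitochondrial mRNAs, Eef1a1 and Gapdh turned to 0.32 and 0.36 and did not pass, where the median of all genes was 0.80. With IAA replicate 1 left out, that scaling kept both below 0. The same holds for the genes and list medians below whose sign it turned.

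The degron acts on protein, so the transcript of the tagged gene is no check of the degradation. Polr2c had 183 and 199 CPM in IAA cells, against 152 and 163 CPM in untreated cells, and rose by 0.28 ± 0.09 on the log2 scale (edgeR adjusted p = 0.0073). The groups did not overlap, and no drop of the transcript was seen, but the call was lost without IAA replicate 2 (0.17) and without untreated replicate 1 (0.18). All 12 Pol II subunit genes were tested. Of these, 5 rose (41.7%) and 3 fell (25%), where 24.4% of all genes rose and 23.3% fell, so the share that fell was near that of all genes.

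Polr2a, encoding RPB1, the catalytic subunit with the C-terminal repeat domain, had 1012 and 1432 CPM in IAA cells, against 249 and 265 CPM in untreated cells (2.25 ± 0.12, edgeR adjusted p = 3.9e-20). Both IAA libraries lay far above both untreated libraries, and the IAA libraries also differed from each other. Polr2b, for RPB2, the other large subunit, had 299.6 and 276 CPM in IAA cells, against 214 and 202 CPM in untreated cells, a rise of 0.47 ± 0.09. Polr2d, for RPB4 of the detachable stalk, rose by 0.82 ± 0.11, while its stalk partner Polr2g, for RPB7, had a log2 fold change of -0.08 ± 0.11 that did not pass (edgeR adjusted p = 0.55).

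Of the assembly module, Polr2l (RPB10) had 77.1 and 62.4 CPM in IAA cells, against 54.4 and 43.9 CPM in untreated cells, a rise of 0.51 ± 0.19. Polr2k (RPB12) had 8.59 and 11.6 CPM in IAA cells, against 16.3 and 18.7 CPM in untreated cells, a fall of 0.79 ± 0.20 on the log2 scale. Polr2j (RPB11), the dimer partner, had 22.0 and 41.6 CPM in IAA cells, against 42.8 and 42.1 CPM in untreated cells, and its change of -0.42 ± 0.19 did not pass (edgeR adjusted p = 0.070). The IAA replicates of Polr2j disagreed, one at the untreated level and one well below it. Polr2i (RPB9), which takes part in transcript cleavage, fell by 1.16 ± 0.20 and Polr2e (RPB5), shared by all 3 nuclear polymerases, fell by 0.39 ± 0.10. Polr2f and Polr2h did not pass. The call of Polr2l was lost without IAA replicate 1 (0.31) and without untreated replicate 2 (0.32), and Polr2j passed without IAA replicate 2 (-0.99).

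Polr2a had a larger log2 fold change in RPB3 than in each line set beside it here. Its log2 fold change was 2.25 in RPB3, 0.68 in RPB11, 1.27 in RPB10, 0.08 in RPB12 and 0.20 in wild type, and the RPB3 response was larger than the RPB11 response (difference tested in edgeR, adjusted p = 2.5e-09). Polr2k also differed between RPB3 and RPB11, at -0.79 and 0.53 (adjusted p = 0.0012), and the other 10 subunit genes did not pass in that contrast.

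Genes of Pol I and Pol III gave 6 falls (31.6%) and 2 rises (10.5%) among 19. Of protein-coding genes averaging at least 5 CPM, 33.1% fell and 24.6% rose, so the share that fell was near theirs. Polr3b, the second-largest subunit of Pol III, had 46.1 and 43.2 CPM in IAA cells, against 94.3 and 95.2 CPM in untreated cells (-1.09 ± 0.08, edgeR adjusted p = 4.8e-15). Znrd1, a small subunit of Pol I, fell by 0.80 ± 0.14, Polr3gl by 0.93 ± 0.17 and Crcp by 0.74 ± 0.14. The 2 that rose, named for that, were Polr3k by 0.49 ± 0.11 and Polr3f by 0.32 ± 0.13, a call lost without each of 3 libraries (0.13 without IAA replicate 2, 0.24 and 0.33 without untreated replicates 1 and 2).

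Factors that assemble Pol II in the cytoplasm and carry it to the nucleus gave 8 falls (50%) and 2 rises (12.5%) among 16. Of protein-coding genes, 43.5% fell at 100 to 200 CPM in untreated wild type and 62.2% at 200 to 500 CPM. The share of the list that fell lay between these. Hsp90ab1, the chaperone on which the assembly complex acts, had 2768 and 2454 CPM in IAA cells, against 4175 and 4054 CPM in untreated cells, and Ruvbl2, an ATPase of the same complex, fell by 0.60 ± 0.09. The 2 that rose were Pdrg1, a prefoldin-like subunit, with 65.7 and 51.1 CPM in IAA cells, against 22.4 and 20.9 CPM in untreated cells (1.43 ± 0.15), and Gpn3, a GTPase of nuclear import, by 0.56 ± 0.10.

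Among 30 pausing and elongation factors, 13 rose and 5 fell, with a median log2 fold change of 0.18 against 0.06 for all genes. P-TEFb, the kinase that releases paused Pol II, is held inactive by HEXIM1 on the 7SK RNA, which LARP7 and MEPCE protect. Hexim1 had 182 and 156 CPM in IAA cells, against 49.3 and 50.5 CPM in untreated cells (1.76 ± 0.11, edgeR adjusted p = 2.1e-18). Larp7 moved the other way, with 38.9 and 35.1 CPM in IAA cells, against 94.3 and 89.8 CPM in untreated cells (-1.31 ± 0.12, edgeR adjusted p = 6.5e-13). Both genes were named by their adjusted p, so the gap between their groups follows from that choice. Supt6, a histone chaperone that travels with Pol II, rose by 0.86 ± 0.09, and Supt16 of the FACT chaperone fell by 0.51 ± 0.07.

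**Figure D2:**
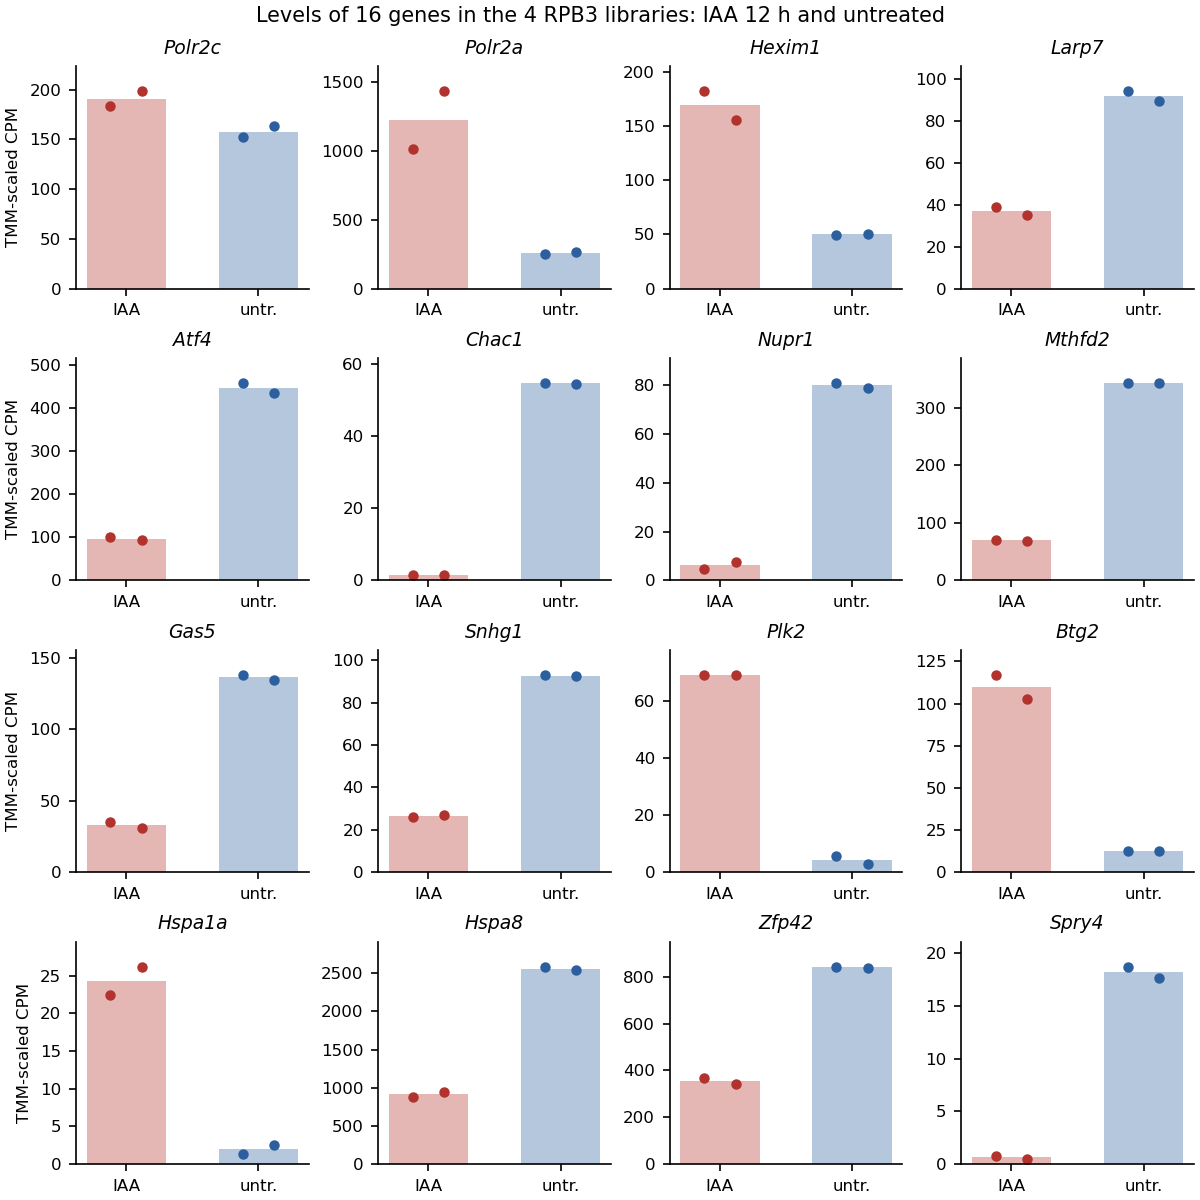
TMM-scaled CPM of 16 genes in the RPB3 libraries, IAA 12 h (red) left of untreated (blue, marked untr.), with bars at the mean and points for the 2 replicates of each group. The replicates of Polr2a with IAA, at 1012 and 1432 CPM, differ from each other but both lie above the untreated points.

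Genes of the integrated stress response fell almost throughout the list. In this pathway, stress kinases phosphorylate the initiation factor eIF2, general translation drops, and the transcription factor ATF4 is translated instead. ATF4 then activates genes for amino acid synthesis, amino acid uptake, tRNA charging and one-carbon metabolism, through the C/EBP-ATF response element in their promoters. Of 36 listed genes, all tested, 33 fell, 1 rose and 2 did not pass, with a median log2 fold change of -1.32 against 0.06 for all genes. The list summed to 4602 and 4116 CPM in IAA cells, against 10276 and 10076 CPM in untreated cells.

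The element was looked for in the promoters of the list. TGATGNAA, searched on both strands from 250 bases before to 50 bases after the gene start in RefSeq promoters (GRCm38.p6), occurred in 10 of 29 listed genes with a promoter in that table (34.5%). Of all 12041 tested genes with a promoter there, 337 had it (2.80%), as did 109 of 3109 that fell (3.51%) and 66 of 3023 that rose (2.18%). A match is a description of letters and does not show binding. The list was drawn from textbook knowledge of this pathway, so its high share may follow from the choice of list. Among the tested genes with a promoter there, 32.3% of those with the element fell, against 25.6% of those without it. The 5 promoters below belong to the 5 genes of the 10 with the lowest log2 fold change. The match is in capitals with up to 24 bases on either side, 5′ to 3′ on the strand of the gene.
Chac1, chr2:119351025-119351080, plus strand: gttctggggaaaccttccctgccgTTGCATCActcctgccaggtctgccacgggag
Vldlr, chr19:27216796-27216851, plus strand: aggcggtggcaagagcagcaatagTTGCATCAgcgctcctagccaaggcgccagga
Nupr1, chr7:126625549-126625604, minus strand: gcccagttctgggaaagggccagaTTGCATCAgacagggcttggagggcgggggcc
Slc7a11, chr3:50443629-50443684, minus strand: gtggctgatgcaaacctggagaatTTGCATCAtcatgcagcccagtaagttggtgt
Pycr1, chr11:120643820-120643875, minus strand: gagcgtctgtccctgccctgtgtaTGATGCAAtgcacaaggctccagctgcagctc
Slc7a11 holds a second match, in lower case near the left end of its line, that starts 66 bases before the gene start, against 47 bases for the one in capitals.

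Atf4 itself, chosen as the factor of the pathway after its values were seen, had 100.4 and 92.7 CPM in IAA cells, against 458 and 434 CPM in untreated cells (-2.21 ± 0.11, edgeR adjusted p = 1.1e-20). The groups did not overlap, as in 73.1% of all genes, and the replicates lay close together. Nupr1, a stress-induced chromatin protein, had 4.84 and 7.60 CPM in IAA cells, against 80.9 and 79.0 CPM in untreated cells (-3.68 ± 0.19, edgeR adjusted p = 1.8e-20). Vldlr, a lipoprotein receptor, had 0.312 and 0.809 CPM in IAA cells, against 15.0 and 15.2 CPM in untreated cells (-4.71 ± 0.35, edgeR adjusted p = 3.8e-15; -5.54 without IAA replicate 2).

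Members that act in metabolism included some of the smallest p-values of the list. Mthfd2, of mitochondrial one-carbon metabolism, had 70.4 and 69.1 CPM in IAA cells, against 344 and 343 CPM in untreated cells (-2.30 ± 0.08, edgeR adjusted p = 2.8e-27). Psat1, of serine synthesis, had 230.4 and 232 CPM in IAA cells, against 820.5 and 823 CPM in untreated cells (-1.83 ± 0.06, edgeR adjusted p = 2.1e-26). Slc7a3, a transporter of cationic amino acids, fell by 2.54 ± 0.10, Slc6a9, a glycine transporter, by 3.47 ± 0.27, and Aldh18a1, of proline synthesis, by 1.76 ± 0.08 on the log2 scale. Of the genes with the element, the cystine transporter gene Slc7a11 fell by 2.36 ± 0.54 (-3.13 without IAA replicate 1, -1.94 without IAA replicate 2), Pycr1, of proline synthesis, by 1.92 ± 0.10, the asparagine synthetase Asns by 1.31 ± 0.07, and the tRNA synthetases Aars and Gars by 1.31 ± 0.07 and 1.10 ± 0.08.

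The 1 gene of the list that rose was Ddit4, an inhibitor of mTORC1 that other stresses also induce, with 78.2 and 59.2 CPM in IAA cells, against 31.3 and 30.5 CPM in untreated cells (1.15 ± 0.18, edgeR adjusted p = 1.0e-06). Cebpb and Ppp1r15a did not pass, at -0.59 ± 0.26 and -0.26 ± 0.12. Ddit3, which encodes CHOP, fell by 0.95 ± 0.22, and Atf3 by 0.60 ± 0.24. The call of Atf3 was lost without IAA replicate 2 (-0.37) and without untreated replicate 1 (-0.48), and Cebpb passed without IAA replicate 1 (-0.95).

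The median of the list was -1.32 in RPB3, -0.66 in RPB11, -0.10 in RPB10, -0.57 in RPB12 and -0.11 in wild type. In the direct test of the responses, 22 of the 36 genes were lower in RPB3 than in RPB11 and 1 was higher (background of that contrast 6.84% lower and 5.5% higher). Against RPB10, 34 were lower and 0 higher (background 12.9% lower), against RPB12, 24 were lower and 2 higher (15.6% lower), and against wild type, 28 were lower and 0 higher (15.3% lower). The list also fell in RPB11 itself, with 29 that fell and 0 that rose (background 13.1% and 10.6%). In RPB12 itself 24 fell and 0 rose (background 2.65% and 2.14%), and in wild type 3 fell and 1 rose. In RPB10 itself the list split, with 12 that rose and 13 that fell (background 18.2% and 21.2%). Atf4 had a log2 fold change of -2.21 in RPB3, -0.38 in RPB11, -0.09 in RPB10, -0.13 in RPB12 and 0.32 in wild type, and differed between RPB3 and RPB11 at an edgeR adjusted p of 6.5e-12. Chac1 had -5.16 in RPB3, -1.73 in RPB11, 0.63 in RPB10, -1.67 in RPB12 and 0.61 in wild type (RPB3 against RPB11, adjusted p = 1.0e-09). Each line was set against its own untreated libraries, and the 4 contrasts share the RPB3 libraries.

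**Figure D3:**
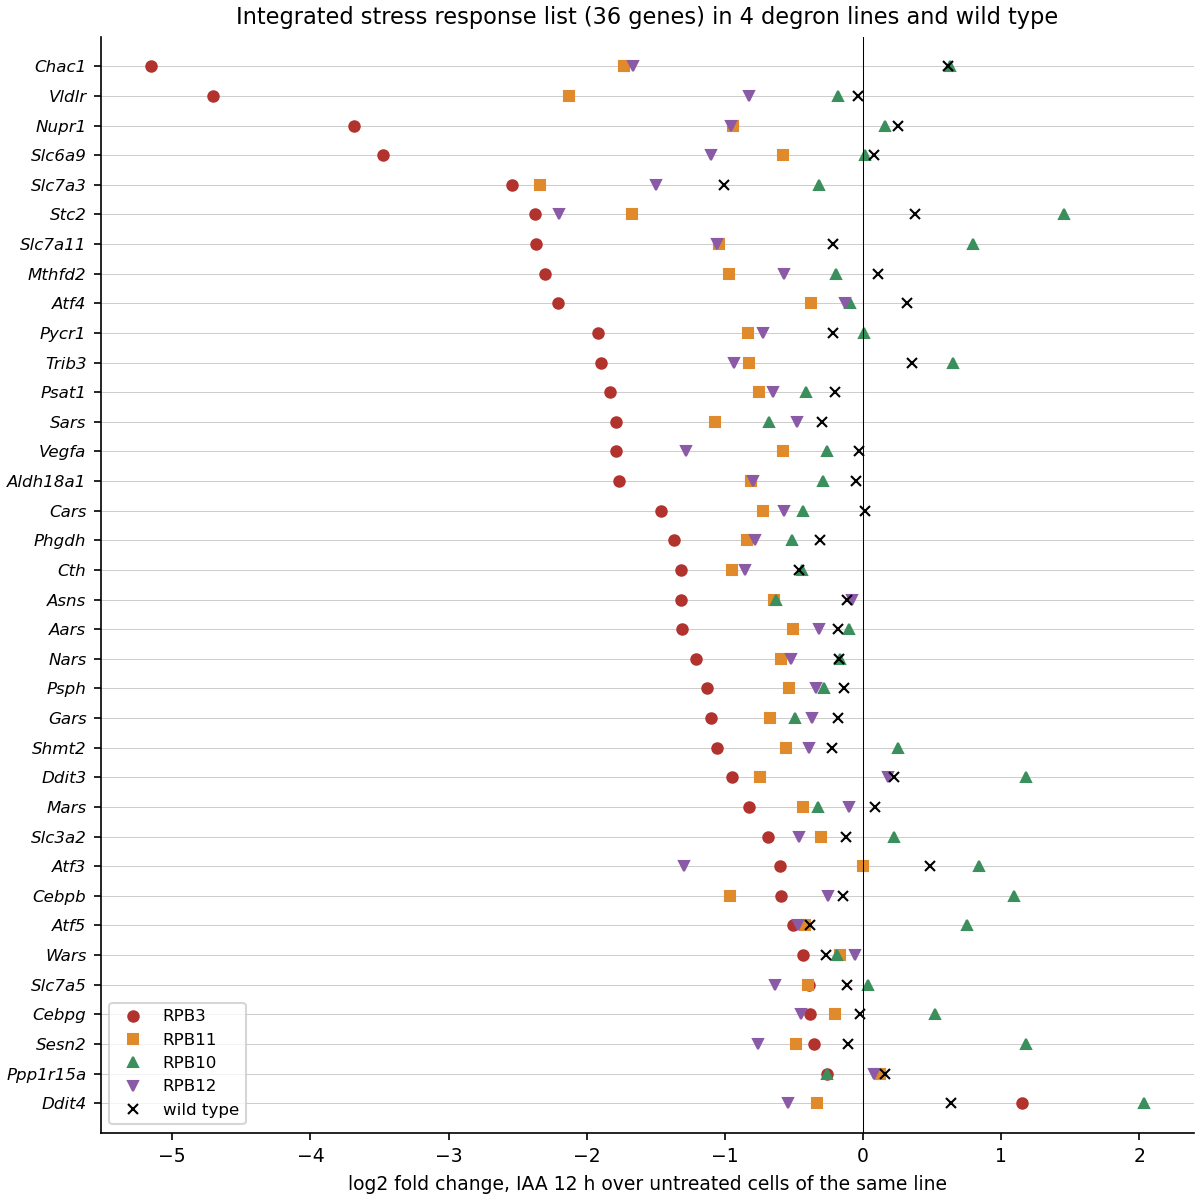
Log2 fold change (IAA 12 h over untreated cells of the same line) of the 36 integrated stress response genes, ordered by the RPB3 value, for RPB3 (red circles), RPB11 (orange squares), RPB10 (green triangles), RPB12 (violet triangles) and wild type (crosses). The list medians are -1.32, -0.66, -0.10, -0.57 and -0.11 in that order of lines.

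The snoRNA host genes make noncoding transcripts whose introns carry small nucleolar RNAs, and their spliced RNAs are known for a short life. Of 13 tested, 11 fell and 0 rose, with a median log2 fold change of -1.76. Gas5, which hosts box C/D snoRNAs, had 35.0 and 30.9 CPM in IAA cells, against 138 and 134 CPM in untreated cells (-2.05 ± 0.12, edgeR adjusted p = 4.1e-19). Snhg1 had 26.2 and 27.2 CPM in IAA cells, against 93.1 and 92.3 CPM in untreated cells (-1.80 ± 0.12, edgeR adjusted p = 3.2e-16). Snhg5 fell by 2.12 ± 0.16 and Snhg6 by 1.82 ± 0.16. Gas5 and Snhg1 were named by their adjusted p, so the gap between their groups and the closeness of their replicates follow from that choice.

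In the other lines the median of these 13 was -0.26 in RPB11, -0.37 in RPB10, -0.01 in RPB12 and 0.00 in wild type. The RPB3 response was lower than the RPB11 response in 7 of them, with 0 higher, and for Gas5 the log2 fold changes were -2.05 in RPB3 and -0.44 in RPB11 (adjusted p of the difference 2.7e-10). In separate libraries at 1 h of IAA against 0 h, 56 of 15658 genes passed (0.358%), 55 of them lower (0.351%) and 1 higher (0.00639%), and 7 of the 12 snoRNA hosts tested there were among these, Gas5 at -0.93 ± 0.11 and Snhg5 at -1.27 ± 0.09 on the log2 scale. Of the 56, 43 were also called at 12 h, 40 of these in the same direction.

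Cytosolic ribosomal protein genes fell by little but together. Of 79 tested, 67 fell (84.8%) and 0 rose, and their log2 fold changes ran from -1.01 to -0.08 with a median of -0.43. Of all genes 23.3% fell. Of protein-coding genes above 500 CPM in untreated wild type, 79.6% fell, with a median of -0.47. Whether this list fell more than other genes of like level was not tested. They summed to 41883 and 38849 CPM in IAA cells, against 56526 and 53491 CPM in untreated cells. Rpl3, a core protein of the large subunit, had 969 and 869 CPM in IAA cells, against 1508 and 1440.0 CPM in untreated cells (-0.68 ± 0.09, edgeR adjusted p = 9.8e-09). Rpl17 fell by 0.93 ± 0.11, and Rpl5 and Rpl15 both by 0.63 ± 0.08. Scaled to mitochondrial mRNAs the median of this list turned to 0.44, where that of all genes was 0.80. Many of these genes have processed pseudogene copies, and the handling of reads that match several places was not given in the sources used here.

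Genes of ribosome biogenesis fell in 35 of 50 (70%) and rose in 3, with a median of -0.41 (0.46 scaled to mitochondrial mRNAs). Of protein-coding genes at 200 to 500 CPM in untreated wild type, 62.2% fell, with a median of -0.34. Nop56, a core protein of box C/D snoRNPs, had 199 and 188 CPM in IAA cells, against 459 and 458 CPM in untreated cells (-1.24 ± 0.08, edgeR adjusted p = 2.1e-17). Npm1, the nucleolar chaperone nucleophosmin, had 1399 and 1223 CPM in IAA cells, against 2859 and 2699 CPM in untreated cells (-1.08 ± 0.08, edgeR adjusted p = 4.2e-15). Dkc1, the pseudouridine synthase of box H/ACA particles, fell by 0.98 ± 0.08 and Noc2l by 1.06 ± 0.09. Eef2, a translation elongation factor that is among the most abundant genes that fell, had 1485 and 1476 CPM in IAA cells, against 2769 and 2749 CPM in untreated cells.

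**Figure D4:**
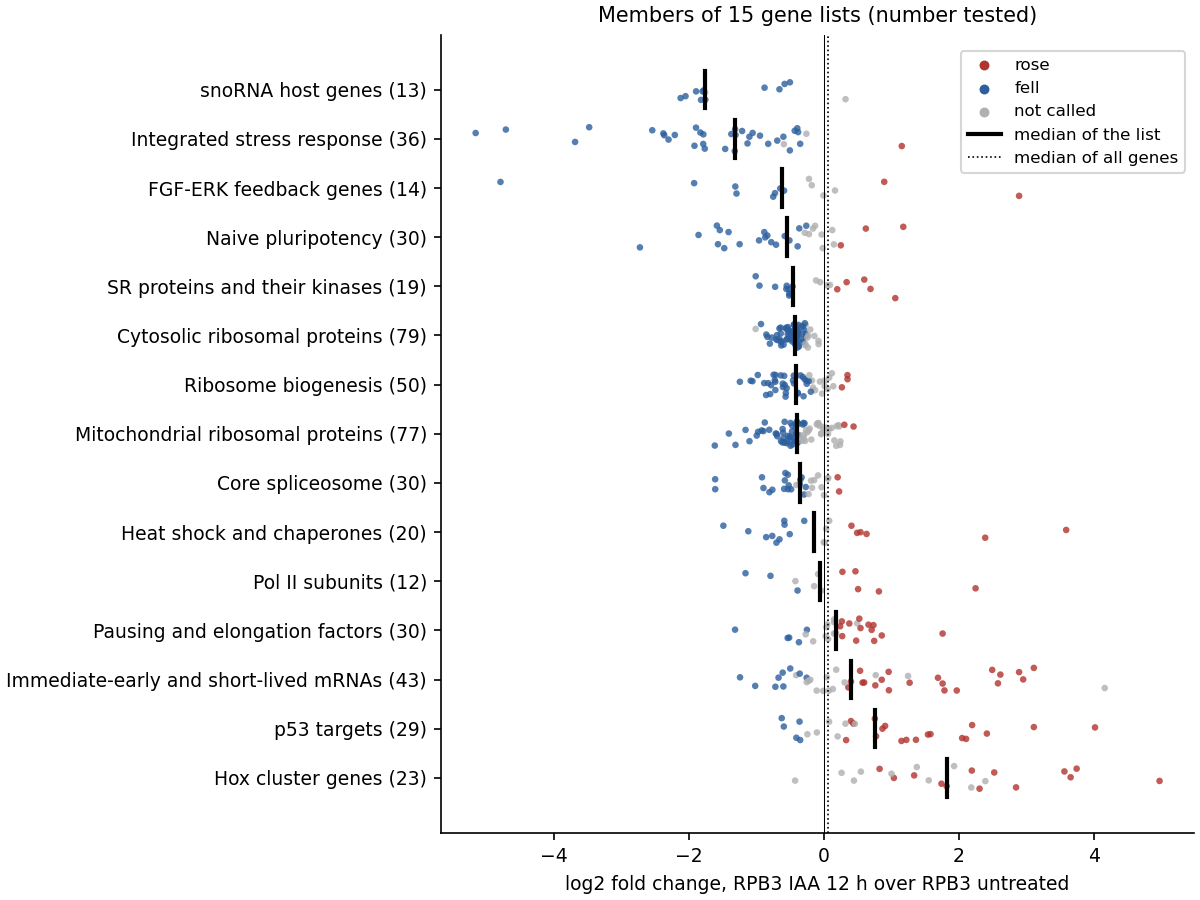
Log2 fold change (RPB3 IAA 12 h over untreated) of the members of 15 gene lists, one point a gene, with the number tested in parentheses and a black bar at the list median. The dotted line is the median of all genes, 0.06, and the medians run from -1.76 for snoRNA host genes to 1.82 for Hox genes (1.74 with the 1 Hox gene at 0 counts in a group set to its bound).

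Targets of the tumour suppressor p53 rose in 18 of 29 and fell in 5, with a median of 0.76. Btg2, an antiproliferative factor that binds the deadenylase, had 117 and 103 CPM in IAA cells, against 12.9 and 12.5 CPM in untreated cells (3.11 ± 0.13, edgeR adjusted p = 2.2e-24). Trp53inp1 had 207 and 238 CPM in IAA cells, against 39.9 and 43.5 CPM in untreated cells (2.41 ± 0.12, edgeR adjusted p = 8.6e-21). Cdkn1a, the cell-cycle inhibitor p21, had 218 and 209 CPM in IAA cells, against 73.5 and 69.4 CPM in untreated cells (1.58 ± 0.09, edgeR adjusted p = 1.2e-18). These 3 were named by their adjusted p, so the gap between their groups follows from that choice.

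The 5 that fell were Trp53 itself by 0.62 ± 0.07, Tigar by 0.36 ± 0.09, Sesn2 by 0.35 ± 0.09, Bax, the pore-forming death effector, by 0.41 ± 0.15, and Gdf15 by 0.59 ± 0.22. The calls of Bax and Gdf15 were lost without IAA replicate 2 (-0.30 and -0.56), that of Bax also without untreated replicate 1 (-0.44) and that of Gdf15 without untreated replicate 2 (-0.56). Sesn2 is also in the integrated stress response list, and these 5 are named because they were the ones that fell. The median of the p53 list was 0.26 in RPB11, 1.05 in RPB10, -0.04 in RPB12 and 0.00 in wild type. In the test of responses, 14 genes were higher and 1 lower in RPB3 than in RPB11 (background 5.5% and 6.84%), and 0 were higher and 11 lower in RPB3 than in RPB10 (background 13.5% and 12.9%). Of the Bcl2 family, which sets the threshold of apoptosis, 4 of 15 rose (26.7%) and 5 fell (33.3%), where 24.4% of all genes rose and 23.3% fell. Pmaip1 (NOXA) and Bbc3 (PUMA), both p53 targets that promote death, rose by 2.20 ± 0.16 and 1.22 ± 0.17, Bcl2l11 (BIM) by 0.94 ± 0.17, and Bid fell by 0.65 ± 0.10.

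Of 43 immediate-early genes and short-lived mRNAs, 20 rose and 9 fell, with a median of 0.40. Jun, a subunit of AP-1, had 28.4 and 28.9 CPM in IAA cells, against 3.89 and 5.65 CPM in untreated cells (2.58 ± 0.19, edgeR adjusted p = 2.0e-15). Id2, an inhibitor of basic helix-loop-helix factors, had 21.7 and 26.5 CPM in IAA cells, against 4.42 and 3.43 CPM in untreated cells (2.61 ± 0.25).

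Of 20 heat shock genes and chaperones, 6 rose (30%) and 10 fell (50%). Of protein-coding genes averaging at least 5 CPM, 24.6% rose and 33.1% fell. Above 500 CPM in untreated wild type, where Hspa8 and Hspa9 lay, 79.6% fell. The inducible Hspa1a and Hspa1b rose: Hspa1a had 22.5 and 26.2 CPM in IAA cells, against 1.41 and 2.57 CPM in untreated cells (3.59 ± 0.22), and Hspa1b rose by 2.39 ± 0.18. These 2 are near-identical copies, so reads may be split between them. The constitutive Hspa8 had 877 and 949 CPM in IAA cells, against 2585 and 2534 CPM in untreated cells (-1.49 ± 0.07, edgeR adjusted p = 1.7e-21), and the mitochondrial Hspa9 fell by 1.12 ± 0.06.

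Naive pluripotency genes fell in 19 of 30 and rose in 3, with a median of -0.54 (0.21 scaled to mitochondrial mRNAs). Beside this, 62.2% of protein-coding genes at 200 to 500 CPM in untreated wild type fell and 8.27% rose, with a median of -0.34. Whether the list fell more than other genes of like level was not tested. Utf1, a chromatin factor of undifferentiated cells, had 35.6 and 35.9 CPM in IAA cells, against 245 and 228 CPM in untreated cells (-2.72 ± 0.15, edgeR adjusted p = 1.6e-19). Lin28a, which blocks let-7 maturation, had 92.6 and 82.3 CPM in IAA cells, against 249 and 260.2 CPM in untreated cells (-1.54 ± 0.08, edgeR adjusted p = 6.7e-21). Zfp42 (REX1) had 369 and 340.3 CPM in IAA cells, against 844 and 839 CPM in untreated cells, a fall of 1.25 ± 0.08. Tdh, the threonine dehydrogenase on which mouse embryonic stem cells depend, fell by 1.57 ± 0.08 and Nr0b1 (DAX1) by 1.86 ± 0.11.

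Nanog had 495 and 559 CPM in IAA cells, against 751 and 749 CPM in untreated cells, a fall of 0.51 ± 0.08, Esrrb fell by 0.26 ± 0.07 and Dppa5a by 0.39 ± 0.12, a call lost without IAA replicate 2 (-0.28). Against RPB11 the responses of Zfp42 (-1.25 in RPB3, -0.10 in RPB11, adjusted p = 2.1e-10) and Nanog (-0.51 and 0.14, adjusted p = 4.8e-05) differed, while Utf1 (-2.72 and -3.33, adjusted p = 0.092) was not shown to, except without RPB11 untreated replicate 1 (difference 0.82). The core factors Pou5f1 and Sox2 did not pass, at -0.28 (edgeR adjusted p = 0.094) and -0.13 (edgeR adjusted p = 0.36). The medians of the list were -0.09 in RPB11, -0.33 in RPB10, -0.07 in RPB12 and -0.15 in wild type. In wild type 8 of the 30 fell with IAA and 1 rose (background 0.842% and 0.803%). Utf1 had 27.1 and 31.5 CPM in wild-type IAA cells, against 71.7 and 74.4 CPM in wild-type untreated cells. Against wild type, the RPB3 response was lower in 17 of the 30 and higher in 4 (background 15.3% and 12.9%).

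Feedback genes of FGF-ERK signalling, which the MEK inhibitor in the medium already lowers, fell in 8 of 14 and rose in 2. Spry4, an inhibitor of receptor signalling, had 0.781 and 0.485 CPM in IAA cells, against 18.7 and 17.6 CPM in untreated cells (-4.79 ± 0.30, edgeR adjusted p = 1.1e-17), and was already lower at 1 h (-1.43 ± 0.14). Etv4 fell by 1.29 ± 0.11 and Dusp4, a MAP kinase phosphatase, by 1.92 ± 0.38. Egr1 moved the other way, with 5.31 and 6.63 CPM in IAA cells, against 0.883 and 0.685 CPM in untreated cells (2.89 ± 0.42), and Dusp5 also rose, by 0.89 ± 0.20. Spry4 also fell in wild type with IAA, at -1.77, and the RPB3 response was lower than that (adjusted p = 7.3e-05).

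Lineage genes did not move one way, and their counts stand beside the 24.4% of all genes that rose and the 23.3% that fell. Of the primed epiblast list 6 of 16 tested rose and 4 fell, of the primitive endoderm list 2 of 13 tested rose and 4 fell, of mesoderm and primitive streak 3 of 12 rose and 1 fell, of neuroectoderm 3 of 13 rose and 3 fell, of trophectoderm 5 of 11 rose and 3 fell, and of the 2-cell-like genes 3 of 13 rose and 1 fell. Most of these genes were near 0. The laminin gene Lama1 had 35.6 and 35.4 CPM in IAA cells, against 88.2 and 98.0 CPM in untreated cells, a fall of 1.39 ± 0.11, while Nes, the filament protein nestin, had 132 and 106 CPM in IAA cells, against 47.9 and 47.3 CPM in untreated cells, a rise of 1.32 ± 0.11. Among Wnt and Nodal targets, Lefty2, a Nodal inhibitor, had 7.65 and 7.28 CPM in IAA cells, against 43.8 and 43.3 CPM in untreated cells (-2.54 ± 0.15).

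Hox cluster genes, which Polycomb complexes keep low in stem cells, rose in 13 of 23 tested and fell in 0 (16 of the 39 did not reach the count filter). The filter keeps genes that are high in 1 group, so no share of the family follows from this. Hoxc12 had 28.6 and 35.6 CPM in IAA cells, against 4.06 and 4.80 CPM in untreated cells (2.85 ± 0.25, edgeR adjusted p = 3.6e-13). Hoxc13 had 32.2 and 26.4 CPM in IAA cells, against 12.7 and 10.4 CPM in untreated cells (1.34 ± 0.16). Hoxb9 rose by 1.82 ± 0.27. Hoxa3 had 42 counts in IAA cells, against 3 in untreated cells, a ratio of 12.8 (exact 95% interval from counting 4.08 to 64.4). All 39 summed to 110.0 and 119.9 CPM in IAA cells, against 34.6 and 36.3 CPM in untreated cells.

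Targets of the aryl hydrocarbon receptor, a sensor of planar aromatic compounds that include indoles, were read in the same way. In RPB3, 4 of 9 rose and 1 fell. Cyp1b1 had 2.65 and 2.43 CPM in IAA cells, against 0 and 0 CPM in untreated cells, which is at least 9.73-fold higher against the floor of 3 counts. Ahrr, the repressor of the receptor, had 28 counts in IAA cells, against 3 in untreated cells, a ratio of 8.52 (2.63 to 43.8). Beside the 15.9 and 13.1 CPM of RPB3 IAA cells, Cyp1a1 had 21.9 and 23.5 CPM in RPB11 IAA cells, 29.1 and 34.1 in RPB10, 19.7 and 22.6 in RPB12, and 1.99 and 2.47 in wild type, with all untreated libraries of these lines under 1 CPM. The RPB3 and RPB11 responses of Cyp1a1 were not shown to differ (edgeR adjusted p = 0.75), and the RPB3 response was larger than that of wild type (edgeR adjusted p = 0.016), a difference lost without wild-type untreated replicate 1 (edgeR adjusted p = 0.38).

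Genes of the core spliceosome fell in 18 of 30 (60%) and rose in 2, with a median of -0.35 (0.48 scaled to mitochondrial mRNAs). Of protein-coding genes at 200 to 500 CPM in untreated wild type, 62.2% fell, with a median of -0.34. Sf3b3, of the U2 particle, had 217 and 201 CPM in IAA cells, against 635 and 641 CPM in untreated cells (-1.61 ± 0.07, edgeR adjusted p = 3.4e-24). Snrpa, a protein of the U1 particle, had 59.0 and 79.4 CPM in IAA cells, against 219 and 203 CPM in untreated cells (-1.61 ± 0.10, edgeR adjusted p = 1.9e-17). Sf3a1 fell by 0.92 ± 0.08 and U2af1, which reads the end of the intron, by 0.89 ± 0.10. Of 19 SR proteins and their kinases 9 fell and 5 rose. Srsf1 and Srsf3 fell by 0.95 ± 0.07 and 1.01 ± 0.09, while Clk4, a kinase of SR proteins, had 57.3 and 54.0 CPM in IAA cells, against 29.0 and 24.5 CPM in untreated cells (1.06 ± 0.13).

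The mRNA decay machinery gave 7 rises (20%) and 11 falls (31.4%) among 35, near the 24.6% and 33.1% of protein-coding genes averaging at least 5 CPM. Xrn2, the nuclear exonuclease that ends transcription, had 75.6 and 79.1 CPM in IAA cells, against 149.8 and 141 CPM in untreated cells (-0.91 ± 0.08, edgeR adjusted p = 9.1e-13). Cnot1, the scaffold of the CCR4-NOT deadenylase, fell by 0.76 ± 0.10, while Tob1 and Tob2, which recruit that deadenylase, rose by 1.10 ± 0.10 and 1.21 ± 0.13. Of 32 Mediator genes 8 rose and 8 fell (25% each), close to the 24.4% and 23.3% of all genes, with a median of 0.00. Med11 fell by 1.36 ± 0.19, and Med13, Med21 and Med4 rose by 0.87 ± 0.16, 0.61 ± 0.12 and 0.56 ± 0.11.

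The change with IAA in wild-type cells was small beside this. There 295 of the same 17928 genes passed (1.65%), 144 higher (0.803%) and 151 lower (0.842%). The RPB3 response differed from that of wild type in 5056 genes (28.2%), 2319 higher and 2737 lower in RPB3. Of the 8558 RPB3 calls, 147 were also called in wild type in the same direction, which is 1.72% of the RPB3 calls and 49.8% of the wild-type calls. Chac1 was lower by 5.77 ± 0.31 in the RPB3 response, with 1.41 and 1.62 CPM in RPB3 IAA cells, against 54.8 and 54.5 CPM in RPB3 untreated cells, and with 36.3 and 40.0 CPM in wild-type IAA cells, against 25.1 and 24.7 CPM in wild-type untreated cells.

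RPB11, the partner of RPB3, gave the closest response of the lines compared by count of differing genes. The RPB11 untreated pair stood apart from each other, with a chi-square per degree of freedom of 7.50 against 1.27 for the RPB3 untreated pair, and each RPB11 value rests on that pair. In RPB11, 4240 genes passed (23.7%). The responses differed in 2213 genes (12.3%), 986 higher and 1227 lower in RPB3, and this count fell to 1390 without RPB3 untreated replicate 1 and 1458 without RPB11 IAA replicate 2. It was 2088 and 2081 without RPB11 untreated replicates 1 and 2. Of the RPB11 calls, 3183 were called in the same direction in RPB3, which is 75.1% of the RPB11 calls and 37.2% of the RPB3 calls, and 57 genes were called in opposite directions. By the share of RPB3 calls also called in the same direction, RPB10 was ahead, at 43.1%. The correlation of log2 fold changes with RPB3 across the 17928 genes was 0.51 for RPB11, 0.44 for RPB10, 0.07 for RPB12 and 0.05 for wild type. Genes are not independent replicates, and these values are a description.

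Among the genes with the largest differences, Col11a2 had log2 fold changes of 4.46 in RPB3 and 0.56 in RPB11 (edgeR adjusted p of the difference 0.00019), and Mttp, a triglyceride transfer protein, had 3.26 in RPB3 and 0.50 in RPB11 (adjusted p = 7.8e-07). Jdp2 had -4.50 in RPB3 and -0.97 in RPB11 (adjusted p = 1.3e-08), and Ubap1l had -5.77 in RPB3 and -2.48 in RPB11 (adjusted p = 7.3e-05). Mir294, counted over its hairpin locus and so not a measure of the mature miRNA, had 0.781 and 0.323 CPM in RPB3 IAA cells, against 5.30 and 6.51 CPM in RPB3 untreated cells, and 7.00 and 5.43 CPM in RPB11 IAA cells, against 8.58 and 7.86 CPM in RPB11 untreated cells (adjusted p = 7.1e-05). Without RPB3 IAA replicate 1 the difference between the responses was -4.59 for Jdp2, -4.48 for Ubap1l and -3.71 for Mir294, and without RPB3 IAA replicate 2 it was -2.69 for Ubap1l.

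The RPB10 response was large, with 7059 genes passed (39.4%), and differed from that of RPB3 in 4740 genes (26.4%), 2422 higher and 2318 lower in RPB3. Of the RPB10 calls, 3685 were called in the same direction in RPB3 (52.2% of the RPB10 calls, 43.1% of the RPB3 calls) and 609 in the opposite direction. Among the genes highest in RPB3 against RPB10 were Rfx3, Robo1 and Mttp. Robo1, an axon guidance receptor, had log2 fold changes of 0.88 in RPB3 and -2.40 in RPB10 (adjusted p = 3.6e-12).

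The RPB12 response was small, with 858 genes passed (4.79%), 2.14% of all genes higher and 2.65% lower, and differed from that of RPB3 in 5301 genes (29.6%), 2504 higher and 2797 lower in RPB3. Of the RPB12 calls, 437 were called in the same direction in RPB3 (50.9% of the RPB12 calls, 5.11% of the RPB3 calls) and 137 in the opposite direction. Efnb2 had log2 fold changes of 3.85 in RPB3 and -0.44 in RPB12 (adjusted p = 9.0e-10), and Kbtbd6 had 3.87 in RPB3 and -0.04 in RPB12 (adjusted p = 1.0e-07), a difference of 4.85 without RPB3 untreated replicate 1 and 3.26 without RPB3 untreated replicate 2.

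The share of genes that rose or fell differed with the level and the structure of the gene. Among protein-coding genes averaging at least 5 CPM, 24.6% of 10556 rose and 33.1% fell. Sorted by the level in untreated wild-type cells, which did not enter the RPB3 contrast, 26.9% rose and 24.2% fell of the 2618 genes at 5 to 20 CPM. At 200 to 500 CPM, 8.27% of 677 genes rose and 62.2% fell, and above 500 CPM, 4 of 201 genes rose and 160 fell (79.6%), with a median log2 fold change of -0.47. Scaled to mitochondrial mRNAs that median turned to 0.35, where that of all genes was 0.80.

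Genes with 1 exon rose in 45.8% of 190 and fell in 10.0%, with a median of 0.30, against 21.6% and 35.8% of the 3310 genes with 9 to 15 exons, whose median was -0.11. In RPB10 the spread by exons and by length was wider: genes with over 30 exons had a median of 0.05 in RPB3 and -0.59 in RPB10, and the 151 genes that span over 300000 bases had medians of -0.27 in RPB3, -0.56 in RPB11, -1.97 in RPB10, -0.13 in RPB12 and -0.19 in wild type. Noncoding genes averaging at least 1 CPM differed by class, beside 24.4% of all genes that rose and 23.3% that fell. Processed pseudogenes rose in 10.1% of 425 and fell in 16.5%, with a median of -0.25, and antisense genes rose in 21.6% of 889 and fell in 13.6%. Of 64 lncRNAs annotated as sharing a bidirectional promoter 34 rose and 5 fell, with a median of 0.98, and of 326 lincRNAs 89 rose and 44 fell, with a median of 0.31. Exon numbers, lengths and classes came from GENCODE M21, and the strand setting of the counting was not given in the sources used here: reads of such RNAs and of the genes beside them cannot be told apart.

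**Figure D5:**
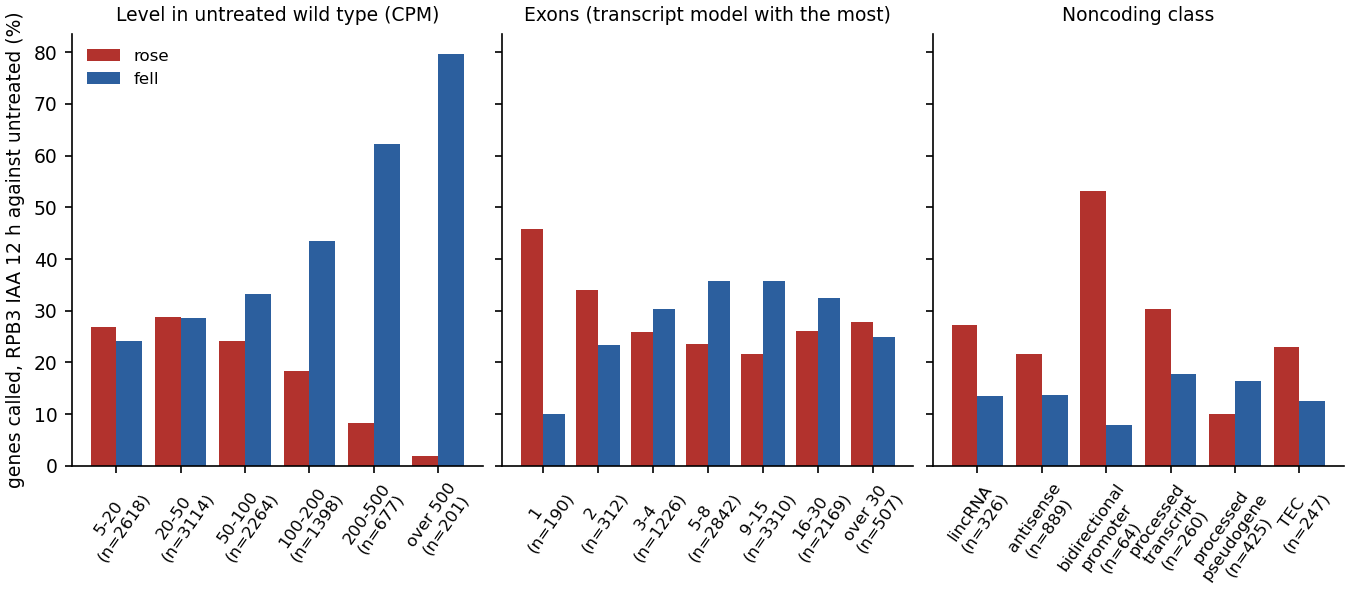
Percent of genes that rose (red) or fell (blue) in RPB3 IAA 12 h against untreated, for protein-coding genes by level in untreated wild type (left) and by exon number (middle), and for noncoding classes (right), with the number of genes under each pair of bars. The share that fell climbs to 79.6% above 500 CPM, and single-exon genes and bidirectional-promoter lncRNAs rose more often than they fell.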

How the data were processed

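RNA-seq counts per gene, as the authors deposited them in 1 table, were used for 64 libraries, poly(A) ones for the 12 h samples per the labels' protocols (the kind was not stated for the 0 h and 1 h set), and 4 columns of that table that match no sample were not used. Cutadapt 1.18, Bowtie2, STAR, SAMtools, deepTools, featureCounts, DESeq2 and the builds mm10 and dm6 are named, per the submitters' processing notes. The sources used here do not give the strand setting, the annotation or the handling of multi-mapped reads, which leaves near-identical copies and overlapping or antisense genes uncertain. GENCODE M21 named 55154 of 55335 gene IDs, and 0 rows named no gene. The 52 libraries of the 12 h set (26 groups of 2) were fitted in edgeR 4.0.16 (R 4.3.3) with TMM scaling, filterByExpr and the quasi-likelihood test (3399838 to 7164928 counts a library), with Benjamini-Hochberg adjustment over 17928 genes. The 12 libraries of the 0 h and 1 h set were fitted apart. SE is the log2 fold change over the root of F. Differences of responses were contrasts in the same fit. The steps were tested on simulated data. Replicates of the IAA pair and of the untreated pair differed by more than sampling noise (chi-square per degree of freedom 7.27 and 1.27), so none was counted as 1 library deposited more than once. Intervals from counts cover counting error only.

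Named genes are the Pol II subunits, the 12 highest and 12 lowest called genes averaging at least 5 CPM with no overlap and no bare model name, the 6 most abundant called in each direction, up to 4 genes of each list by adjusted p, and the 4 highest and 4 lowest of each difference of responses. Some genes this rule allows are not reported here. Outside this rule, and chosen after values were seen, are Uts2r, Gm38300, Atf3, Atf4, Ddit3, Ddit4, Cebpb, Ppp1r15a, Dusp5, Polr3f, Polr3k, Pou5f1, Sox2, Nanog, Esrrb, Dppa5a, Zfp42, the p53 list members that fell (Trp53, Tigar, Sesn2, Bax, Gdf15) and genes with the promoter motif (Slc7a11, Pycr1, Asns, Aars, Gars). The gene lists and members were chosen with earlier results of these data known. Alternatives were RLE, total-count and mitochondrial mRNA scaling, DESeq2 1.42.0, other filters, fewer libraries, the replicate number as a block, a fold threshold, and leaving out each library. Mitochondrial mRNA scaling without IAA replicate 1 was chosen after seeing the data.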

Additional observations from a re-analysis of the deposited data

Results flagged for a closer look

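The RPB3 response to IAA differed from that of each line compared by a test of the difference of responses in edgeR (adjusted p under 0.05). It differed from wild type in 5056 genes, from RPB11 in 2213, from RPB10 in 4740 and from RPB12 in 5301. Given as the RPB3 log2 fold change minus that of the other line, Polr2a differed from RPB11 by 1.57, Col11a2 by 3.91, Mttp by 2.76 and Firre by 1.47, all higher in RPB3. Lower in RPB3 than in RPB11 were Polr2k by -1.32, Atf4 by -1.83, Chac1 by -3.42, Gas5 by -1.61, Zfp42 by -1.14, Nanog by -0.65, Jdp2 by -3.52, Ubap1l by -3.29 and the Mir294 locus by -2.96. Against RPB10, Rfx3 differed by 3.39, Robo1 by 3.28 and Mttp by 3.23. Against RPB12, Efnb2 differed by 4.28 and Kbtbd6 by 3.91. Against wild type, Chac1 differed by -5.77, Spry4 by -3.02 and Cyp1a1 by 3.63.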

How the results depend on the processing

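With RPB3 IAA against untreated, leaving out 1 library gave 6715 to 7314 genes, and all other settings but the fold threshold lay within 1.5 times of 8558. Requiring also a log2 fold change of at least 1 in size, the counts were 3260 for IAA against untreated, and 2159, 677, 1932 and 2216 for the differences from wild type, RPB11, RPB10 and RPB12. Leaving out 1 library gave 4000 to 4579 genes for the difference from wild type, 1390 to 2088 from RPB11, 3802 to 4496 from RPB10 and 4177 to 4919 from RPB12. The difference from RPB11 fell to 949 genes scaled to mitochondrial mRNAs and to 1056 with only the libraries of both lines.

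Scaling moved the split of directions. RLE gave 1189 higher and 981 lower against RPB11. Total counts gave 3340 higher and 1849 lower against wild type, 1356 and 822 against RPB11, 2910 and 1797 against RPB10, and 3566 and 1856 against RPB12, and mitochondrial mRNAs 4912 and 122, 931 and 18, 6956 and 58, and 3555 and 121 in that order. Scaled to mitochondrial mRNAs, where the median of all genes was 0.80, the sign turned for Atf3 0.17, Bax 0.49, Bid 0.15, Cebpb 0.25, Dppa5a 0.53, Eef1a1 0.32, Esrrb 0.56, Firre 0.094, Gapdh 0.36, Gdf15 0.15, Hsp90ab1 0.22, Nanog 0.28 (its difference from RPB11 0.0064), Ndufs1 0.17, Polr2e 0.48, Polr2f 0.77, Polr2g 0.79, Polr2h 0.82, Polr2j 0.14, Pou5f1 0.63, Ppp1r15a 0.55, Psmd3 0.022, Rpl15 0.18, Rpl3 0.19, Rpl5 0.19, Ruvbl2 0.28, Sesn2 0.49, Sox2 0.70, Supt16 0.35, Tigar 0.46 and Trp53 0.19. Medians turned for cytosolic ribosomal proteins 0.44, ribosome biogenesis 0.46, naive pluripotency 0.21, core spliceosome 0.48, mitochondrial ribosomal proteins 0.45, genes over 500 CPM 0.35 and genes over 300000 bases 0.43. Without IAA replicate 1, that scaling turned the sign of none of the 159 genes checked in IAA against untreated, those above included. Of the medians it turned only those of Mediator -0.15 and of all genes -0.18 (over the genes tested with all libraries, -0.16 over those this fit tested). Total counts turned Polr2f 0.040, Polr2g 0.099, Polr2h 0.15 and Sox2 0.055. Polr2h, uncalled, was 0.00034 with DESeq2, 0.00046 with RLE and 0.023 with the 5 CPM filter. Leaving out 1 RPB3 library, Polr2h ran from -0.20 to 0.052, mt-Nd1 from -1.57 to 0.076, the Mediator median from -0.11 to 0.048 and the median of all genes from 0.00 to 0.020 over the genes tested with all libraries, or to 0.035 over the genes each such fit tested. The causes were not tested.

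The replicate numbers were not taken to pair the samples, since same-numbered deviations correlated at 0.0989 over 11567 genes. With the replicate block 8009 genes were called, and Polr3f lost its call (adjusted p = 0.060) while Cebpb and Polr2j gained one, and it changed no other call of a named gene. Counts near the floor limit what low genes can show.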

Other observations

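Several other housekeeping groups had more falls than rises in RPB3 cells with IAA, where 24.4% of all genes rose and 23.3% fell. Abundant genes fell more often in general. Of protein-coding genes, 33.1% fell among those averaging at least 5 CPM and 62.2% among those at 200 to 500 CPM in untreated wild type. Whether these groups fell more than other genes of like level was not tested. Genes of the mitochondrial ribosome fell in 45 of 77 tested (58.4%) and rose in 2, with a median log2 fold change of -0.40 (0.45 scaled to mitochondrial mRNAs). Mrps18b had 26.9 and 33.3 CPM in IAA cells, against 75.1 and 73.8 CPM in untreated cells (-1.31 ± 0.11), and Mrpl58 fell by 1.41 ± 0.14. Nuclear genes of oxidative phosphorylation fell in 22 of 49 (44.9%) and rose in 0, and Ndufs1, of complex I, fell by 0.69 ± 0.09. Proteasome subunits fell in 18 of 31 (58.1%) and rose in 0. Psmd3, of the regulatory particle, had 176 and 142 CPM in IAA cells, against 298 and 287 CPM in untreated cells (-0.88 ± 0.10). DNA replication genes fell in 22 of 38 (57.9%) and rose in 4, and mitosis genes fell in 18 of 27 (66.7%) and rose in 2. Rrm2, which makes deoxynucleotides, fell by 1.04 ± 0.07, and Ccnb1, the mitotic cyclin B1, by 1.06 ± 0.07.

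Of 27 replication-dependent histone genes tested of 70 listed, 10 rose and 3 fell. The other 43 did not reach the count filter, which keeps genes that are high in 1 group, so no share of the family follows. Their mRNAs normally lack a poly(A) tail, and these are poly(A) libraries. Hist2h2be had 10.1 and 10.5 CPM in IAA cells, against 0.707 and 1.20 CPM in untreated cells (3.40 ± 0.34). Of 11 polyadenylated variants, 2 rose and 5 fell, and the difference between these lists was not tested. H1f0, a linker histone, had 185 and 193 CPM in IAA cells, against 57.4 and 66.8 CPM in untreated cells (1.60 ± 0.10), and Cenpa, of the centromere, fell by 0.87 ± 0.08. The Polycomb list gave 5 rises and 10 falls among 18, the NRF2 list 5 and 8 among 17, and the interferon list 4 and 2 among 13. Gclc, of glutathione synthesis, rose by 1.12 ± 0.10, and the metallothioneins Mt1 and Mt2 fell, Mt1 by 1.19 ± 0.11. Of 12 nuclear long noncoding RNAs 3 rose and 6 fell. Firre had a log2 fold change of -0.75 in RPB3 and -2.22 in RPB11 (edgeR adjusted p of the difference 6.95e-08).

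Of 12 mRNAs of the mitochondrial genome 1 passed. It was mt-Nd1, with 651 and 2015 CPM in IAA cells, against 1871 and 1868 CPM in untreated cells, so the groups overlapped and the low value was that of IAA replicate 1. Without IAA replicate 1 its log2 fold change was 0.076, and without IAA replicate 2 it was -1.57. Its call was also lost without either untreated library (-0.53 in both cases). The cause of the low value was not tested.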
